A study of Mus musculus with 8 samples.

Results

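Cells of 2 mouse lines altered at the gene of miR-140 were compared with each other: the C>T mutants against the CG mutants. The comparison used 4 of the 8 libraries of the series, 2 per mutant group, chosen by their labels alone, and it is described over all genes. C>T mutants carried a C>T base change and CG mutants a mutation in the seed region of the 3p arm, and both alterations are described by the submitters as giving overexpression of the 5p arm. All cells were chondrocytes digested from rib cartilage of CD1 mice aged 10 days with collagenase overnight, filtered and plated before RNA was taken. Each line has a wild-type group of its own, of 2 libraries, which carries neither alteration. Because each alteration came with its own line, the alteration and the line cannot be told apart within the mutant comparison. No label used here tells whether the lines were digested, plated or sequenced together. Handling therefore cannot be told apart from the line either, and a line difference below may hold both. Zygosity, the altered bases of the CG line and the number of animals behind a library are not given in the labels. P-values therefore measure the spread between these libraries.

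MicroRNAs are cut from a hairpin precursor into a 5p and a 3p arm, and either arm can guide Argonaute proteins to messenger RNAs through its seed, the short stretch near its 5′ end that pairs with sites in 3′ UTRs. The genes so bound are usually lowered by a modest amount. The miR-140 precursor lies in an intron of Wwp2, a ubiquitin ligase gene that is switched on with it in cartilage by the transcription factor Sox9, and mice without the microRNA have short skeletons and early cartilage degeneration.

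The reference form of the 3p arm is shown because the CG alteration lies in its seed, which the capitals mark as bases 2 to 8. RefSeq places it on the plus strand of GRCm38.p6 at chr8:107551288-107551308, and only this unaltered sequence was used here.
mmu-miR-140-3p: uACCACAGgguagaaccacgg

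The mutant libraries held 26875777 to 28678641 counts each. The type II collagen gene Col2a1, a chondrocyte marker, was at 24140 to 41094 CPM in all 4. CPM is a gene's count scaled to the TMM-adjusted depth of its library. The 27 chondrocyte genes listed summed to 36497 to 61937 CPM. The 24 collagen and matrix genes of fibroblasts, Fn1 among them, summed to more in each library, at 57060 to 107100 CPM. The first principal component of the 4 libraries held 74.8% of the variance and separated the lines. The second held 16.2% and set CG mutant replicate 1, at 30.8, apart from CG mutant replicate 2, at -36.5, with both C>T mutants near 3. The Y-linked gene Ddx3y was counted 3512 and 30 times in the C>T mutants and 2231 and 2360 times in the CG mutants. Summed over the 4 Y-linked genes tested, levels were 199 and 1.79 CPM against 163 and 162 CPM. C>T mutant replicate 2 thus nearly lacked Y-linked transcripts, which both CG mutants held, so the mutant groups were not balanced in this sign of sex. In the wild types Ddx3y was counted 3669 and 10 times in the C>T line and 2 and 2511 times in the CG line. The part of this imbalance in the results was not tested.

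The lines differed widely. By edgeR's quasi-likelihood test with Benjamini-Hochberg adjustment at 0.05, 5184 of 14359 genes tested (36.1%) differed between the mutants, 2564 (17.9%) higher and 2620 (18.2%) lower in C>T mutants. A change of at least 2-fold was called for 903 higher genes (6.29%) and 1050 lower genes (7.31%), and one of at least 8-fold for 79 and 100. In all 5184 called genes the 2 groups did not overlap, as was the case for 10208 of all genes tested (71.1%). The median absolute log2 fold change was 0.39 over all genes and 0.79 over the called ones. When C>T mutant replicate 1 or 2 was left out, 2931 or 2908 genes were called. The split between higher and lower genes depends on the scaling. On the authors' FPKM, 73.7% of 5042 called genes were higher, against 49.5% here, and the median of all genes moved to 0.19 on the log2 scale, so directions below are relative to the TMM scaling.

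The same line difference was present in cells without the alterations. Between C>T and CG wild types, which share no library with the mutants, 4843 genes (33.7%) were called, 857 (5.97%) at least 2-fold higher and 938 (6.53%) at least 2-fold lower. Of the 4843 genes 3717 were also called in the mutants. That is 71.7% of the mutant calls and 76.7% of the wild-type calls, and 3708 of the 3717 had the same direction. Of the 5184 genes called in mutants, 5092 (98.2%) had the same sign in the wild types, against 84.3% of all genes tested. Across genes, which are not independent replicates, mutant and wild-type differences were correlated at 0.82 (Pearson's r) and 0.84 (Spearman's rho). When the mutant difference was tested against the wild-type difference, 3 of 14359 genes (0.0209%) passed the edgeR test: Eif3j2 and Cwc22 on the higher side (0.0139%) and Palld on the lower (0.00696%). At an unadjusted edgeR p of 0.05 the number was 687 of 14359, about the share such a threshold passes when no gene differs. With 2 libraries a group, and CG mutants that lay apart from each other, this share does not show that no gene differs. With DESeq2 38 of 11669 genes passed at an adjusted p of 0.05.

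**Figure D1:**
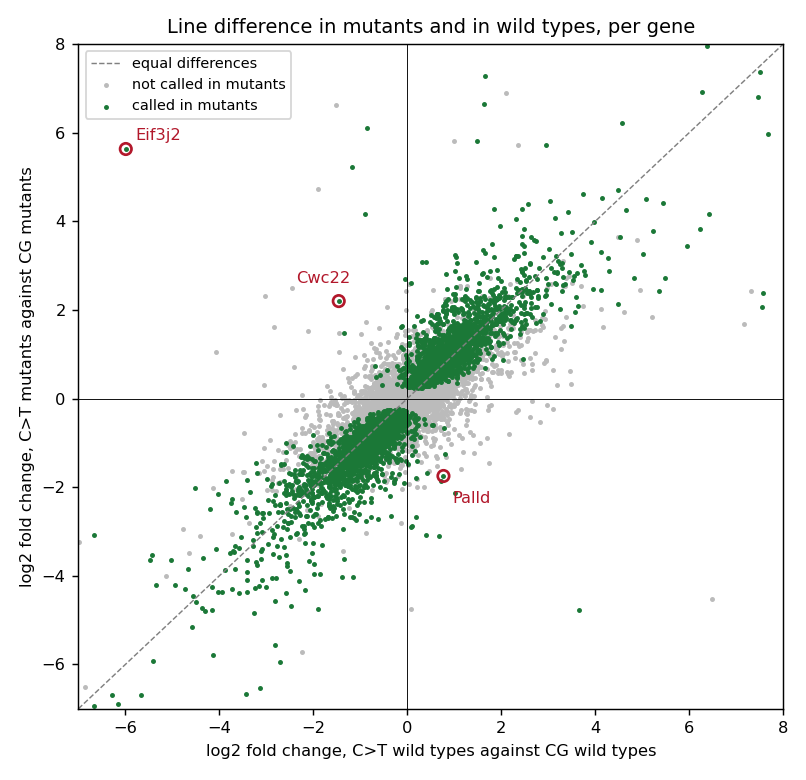
Each point is a gene tested, placed by its log2 fold change between C>T and CG wild types (horizontal axis) and between C>T and CG mutants (vertical axis), with genes called in mutants in green and 16 genes beyond the axes not drawn. The points follow the line of equal differences. The circled Eif3j2, Cwc22 and Palld lie away from it, as the 3 genes that passed the edgeR test of the mutant against the wild-type difference.

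Gene lists, described by counts and medians without a test, show which functions these genes belong to. Each count is to be read beside the shares of all genes tested, 17.9% higher and 18.2% lower. Among lists with at least 20 members tested, the stress response, DNA replication and glycolysis lists had the highest shares of called members, 93.3%, 72.7% and 69.0%, against 36.1% of all genes. Cytosolic ribosomal protein genes, 80 in number, held 2 higher and 2 lower members, and respiratory chain subunits, 72 in number, held 5 higher and 1 lower, both well under the shares of all genes. The higher respiratory chain genes numbered 0 to 3 when any 1 mutant library was left out. On log2(FPKM + 1) 24 ribosomal protein genes were higher and 0 lower, where 3717 of all 11232 genes tested were higher and 1325 lower.

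**Figure D2:**
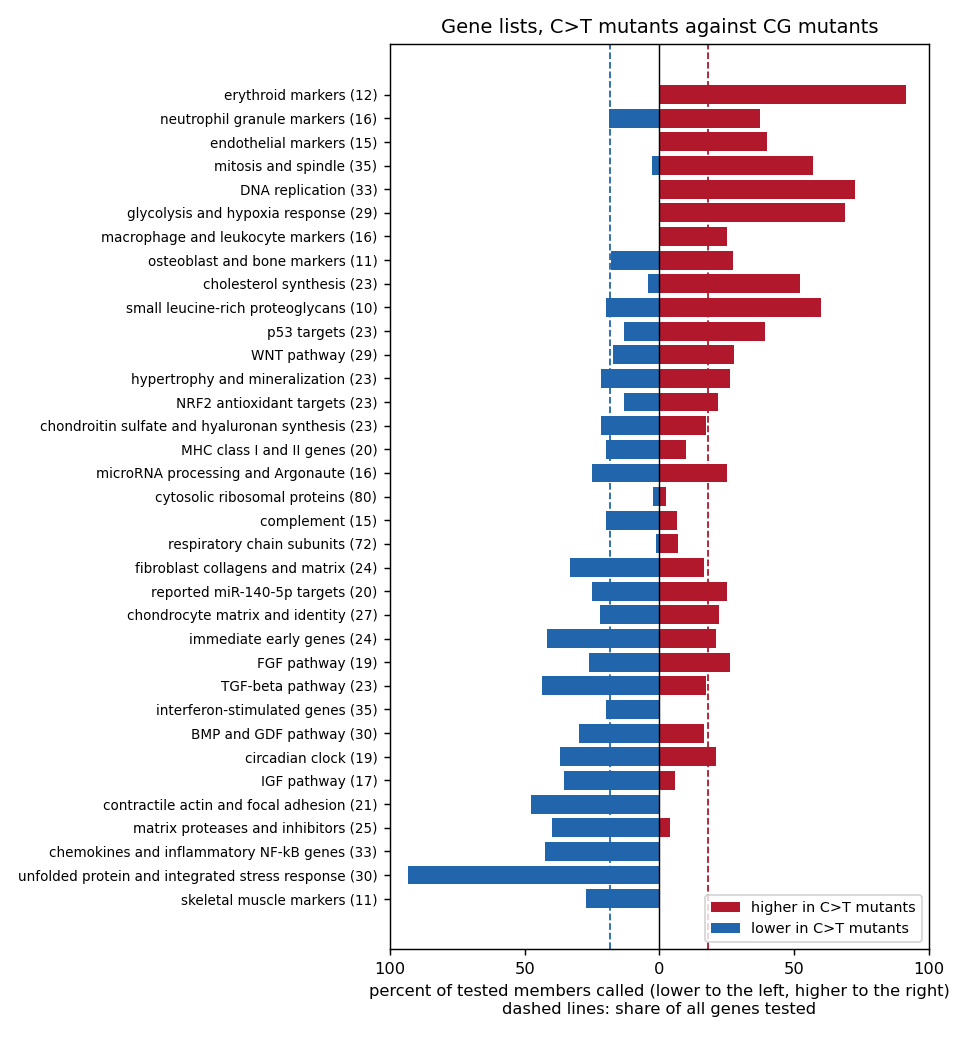
Bars show the percent of the tested members of each of 35 gene lists (number tested in brackets) called higher (red, to the right) or lower (blue, to the left) in C>T mutants, and dashed lines mark the shares over all genes, 17.9% higher and 18.2% lower. The stress response bar reaches 93.3% on the lower side and the erythroid bar 91.7% on the higher side.

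Cytosolic heat shock chaperones, which refold damaged proteins, were higher in C>T mutants. The inducible chaperone gene Hspa1a stood at 492 and 400.2 CPM in C>T mutants and at 11.8 and 22.6 CPM in CG mutants. Its neighbour Hspa1b, which encodes a nearly identical protein, was at 657 and 545 CPM in C>T mutants and 17.0 and 35.3 CPM in CG mutants. Both genes were higher in every C>T library than in any CG library, and because reads may be shared among such copies the level of each by itself is uncertain. The log2 fold change of Hspa1a was 4.69 ± 0.38 (SE of the edgeR fit, as after every ± sign, with 2 libraries a group) with an edgeR adjusted p of 0.000264. For Hspa1b it was 4.52 ± 0.42, with 4.08 without CG mutant replicate 1 and 5.14 without replicate 2. The promoter windows of both copies differ at 4 of 300 bases.

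The co-chaperone gene Dnajb1, which stimulates the ATPase of these chaperones, was at 126 and 118 CPM in C>T mutants and 28.1 and 30.3 CPM in CG mutants. Its log2 fold change of 2.06 ± 0.12 had an edgeR adjusted p of 0.000104, and the groups did not overlap. The constitutive chaperone gene Hspa8 was at 3872 and 4169.7 CPM against 1321 and 1234 CPM, a log2 fold change of 1.65 ± 0.14. Hsph1, a nucleotide exchange factor for the same machine, was at 1.52 on the log2 scale, Hsp90aa1 at 1.24, the chaperone adaptor gene Bag3 at 1.35, and the small heat shock protein genes Hspb1 and Cryab at 1.63 and 1.97. The mitochondrial chaperone genes Hspe1 and Hspd1 were also higher, at 0.67 and 0.32. Of 16 genes of this kind, a list put together after their values were seen, 13 were higher and 0 lower, with a median of 1.31, and 11 to 14 were higher in every alternative run. Hsf1, the transcription factor that drives the heat shock response, was not called, at 64.3 and 65.0 CPM in C>T mutants and 73.5 and 67.5 CPM in CG mutants. In the wild types Hspa1a had a log2 fold change of 4.49 and Dnajb1 of 2.10.

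The promoter of Hspa1a is shown as an example of the windows searched, running from 250 bases before to 50 after the transcription start (RefSeq, GRCm38.p6, chr17:34972107-34972406, minus strand). Capitals mark the match to the heat shock element core GAANNTTC, which reads the same on both strands and begins at position -104 where 0 is the start base. Such a match was found in 8 of 11 chaperone genes with a window in the table (72.7%) and in 625 of 11337 tested genes with one (5.51%). A longer form, the core followed by any pair of bases and GAA, was found in 2 of the 11 (18.2%) and in 44 of all (0.388%). The letters of the other motifs searched do not contain one another. A match is a description of the letters and not evidence of binding.
Hspa1a promoter: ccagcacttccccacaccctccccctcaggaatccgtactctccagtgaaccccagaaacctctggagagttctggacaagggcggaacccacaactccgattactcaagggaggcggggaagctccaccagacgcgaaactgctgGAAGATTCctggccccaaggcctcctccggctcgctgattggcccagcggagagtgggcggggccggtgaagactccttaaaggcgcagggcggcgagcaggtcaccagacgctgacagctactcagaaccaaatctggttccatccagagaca

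Genes of the unfolded protein response and the integrated stress response went the other way. These pathways slow translation and raise chaperones of the endoplasmic reticulum, amino acid synthesis enzymes and the transcription factor ATF4 when secretory cells are stressed. Of 30 members tested 28 were lower in C>T mutants and 0 higher, against 18.2% and 17.9% of all genes tested. The median log2 difference was -1.10. The groups did not overlap in any of the 30, as in 71.1% of all genes tested. Between 22 and 29 members were lower in every alternative, 27 without CG mutant replicate 1 and 22 without C>T mutant replicate 2. The 2 members that did not pass were Atf3, at 26.2 and 16.2 CPM against 38.1 and 36.9 CPM, and the amino acid transporter subunit gene Slc3a2, at 755 and 548 CPM against 791 and 927 CPM.

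Atf4 itself, the regulator of the amino acid branch, was at 599 and 566 CPM in C>T mutants and 1191 and 1139 CPM in CG mutants. That is a log2 difference of -1.0 ± 0.11 (edgeR adjusted p 0.000696). Ddit3, which encodes the pro-apoptotic factor CHOP, was at 27.8 and 22.3 CPM against 201 and 167 CPM, and the pseudokinase gene Trib3, which restrains ATF4 signalling, at 39.6 and 33.7 CPM against 279.7 and 259 CPM. Both genes were several-fold lower in each C>T library than in either CG library. The log2 fold change of Ddit3 was -2.88 ± 0.22 and that of Trib3 -2.88 ± 0.17, with edgeR adjusted p-values of 0.000228 and 0.000118. Chac1, which degrades glutathione, was at 47.8 and 35.1 CPM against 199 and 182 CPM, a log2 fold change of -2.20 ± 0.25. The hormone gene Fgf21 had the lowest value of the list, -3.03 ± 0.37, at 1.86 and 1.49 CPM against 16.8 and 10.6 CPM.

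Effectors of these pathways were lower too. Enzymes of serine, asparagine and one-carbon synthesis were lower, with Asns at -0.83, Psat1 at -0.85, Phgdh at -0.58, Shmt2 at -0.62 and Mthfd2 at -1.41 on the log2 scale. Chaperones and folding enzymes of the endoplasmic reticulum were among the lower members. Hspa5, which encodes BiP, was at 1445 and 1239 CPM in C>T mutants and 1963 and 2278 CPM in CG mutants, and Hsp90b1, Calr, Pdia4, Pdia6, Manf and Sdf2l1 were at -0.81, -1.10, -1.19, -0.94, -1.16 and -1.95. Xbp1, the splicing-activated regulator of this branch, was at -0.99 ± 0.21. The stress-induced factor genes Ddit4, Nupr1 and Gdf15 were at -1.71 ± 0.16, -1.36 ± 0.14 and -1.66 ± 0.20. In the wild types 25 of the 30 genes were called lower with a median of -0.82, and no member differed between the mutant and the wild-type comparison by the test of that difference.

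**Figure D3:**
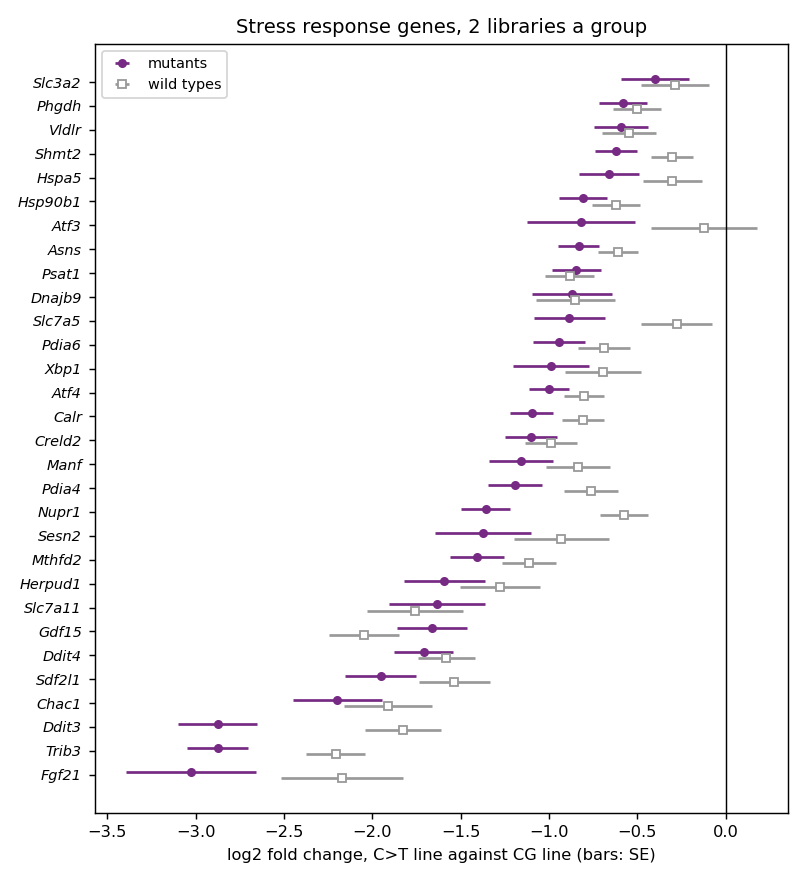
Points show the log2 fold change between the C>T and the CG line of 30 stress response genes, in mutants (filled circles) and wild types (open squares), with bars of 1 SE from the edgeR fit of 2 libraries a group. Every point lies left of 0, from -0.40 for Slc3a2 to -3.03 for Fgf21 in mutants.

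Promoters of Chac1 (RefSeq, GRCm38.p6, chr2:119350992-119351291, plus strand) and Asns (chr6:7693160-7693459, minus strand) are shown because each holds the composite C/EBP-ATF motif TGATGNAA, marked in capitals on either strand (its reverse complement is TTNCATCA). The match begins at -193 in Chac1 and at -23 in Asns. The motif was found in 8 of 28 windows of the list (28.6%), those of Atf3, Trib3, Chac1, Asns, Slc7a11, Nupr1, Fgf21 and Herpud1, against 269 of 11337 (2.37%).
Chac1 promoter: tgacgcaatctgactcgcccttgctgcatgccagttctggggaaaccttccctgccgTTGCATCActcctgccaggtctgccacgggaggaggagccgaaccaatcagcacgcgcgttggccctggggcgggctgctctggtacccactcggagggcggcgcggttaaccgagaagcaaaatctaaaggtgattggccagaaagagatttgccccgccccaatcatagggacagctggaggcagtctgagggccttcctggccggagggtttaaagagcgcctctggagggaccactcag
Asns promoter: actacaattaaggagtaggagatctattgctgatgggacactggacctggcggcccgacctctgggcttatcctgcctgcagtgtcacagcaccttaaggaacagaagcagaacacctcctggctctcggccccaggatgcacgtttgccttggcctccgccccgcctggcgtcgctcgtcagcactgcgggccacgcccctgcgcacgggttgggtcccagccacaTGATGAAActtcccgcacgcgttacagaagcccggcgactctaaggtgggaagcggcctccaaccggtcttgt

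Genes of glycolysis and of the hypoxia response were higher in C>T mutants. Of 29 tested, 20 were higher and 0 lower, the median log2 difference being 0.79, and 18 to 22 were higher in every alternative. The lactate exporter gene Slc16a3, a known target of hypoxia-inducible factor, was at 244 and 224 CPM in C>T mutants and 26.8 and 37.7 CPM in CG mutants. Its log2 fold change was 2.86 ± 0.20 with an edgeR adjusted p of 0.000205. The liver-type phosphofructokinase gene Pfkl was at 283 and 296 CPM against 75.3 and 77.5 CPM, and the triose phosphate isomerase gene Tpi1 at 438 and 484 CPM against 114 and 124 CPM. The 2 C>T libraries of each of these genes lay close together and far above both CG libraries. Their log2 fold changes were 1.92 ± 0.11 and 1.96 ± 0.12, with edgeR adjusted p-values of 0.000104 and 0.000123. In the wild types 21 of the 29 genes were higher in the C>T line and 0 lower, with a median of 0.82.

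Most other steps of the pathway were higher as well. Hexokinase 1 (Hk1) was at 1.54 ± 0.13, platelet phosphofructokinase (Pfkp) at 1.5 ± 0.14, phosphoglycerate kinase (Pgk1) at 0.79 ± 0.11, aldolase A (Aldoa) at 0.69 ± 0.10 and lactate dehydrogenase A (Ldha) at 0.63 ± 0.12. Bnip3, which drives removal of mitochondria in low oxygen, was at 120.4 and 140.1 CPM against 27.0 and 25.2 CPM, a log2 difference of 2.32 ± 0.16 (edgeR adjusted p 0.000178). Carbonic anhydrase 9 (Car9) was at 13.5 and 15.6 CPM against 0.623 and 2.48 CPM, and the prolyl hydroxylase gene Egln3, part of the feedback on hypoxia-inducible factor, at 13.6 and 14.1 CPM against 1.54 and 4.31 CPM. Ndufa4l2, a mitochondrial gene outside the list that is also induced in low oxygen, was at 27.3 and 28.1 CPM against 1.79 and 4.58 CPM. Its log2 fold change was 3.11 ± 0.37, or 2.59 and 3.94 without CG mutant replicate 1 and 2. Hk2, at -0.05 ± 0.19, and the angiogenic factor gene Vegfa, at 0.13 ± 0.21, did not pass, and neither did Gapdh, at 0.38 ± 0.13. The hypoxia response core ACGTG, searched on both strands, was found in 14 of 27 windows of the list (51.9%) and in 2847 of 11337 of all (25.1%).

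Sterol synthesis genes, which SREBP2 switches on when cholesterol is low, were in part higher. Of 23 tested, 12 were higher and 1 lower, with a median of 0.50, and the count of higher genes was 8 without CG mutant replicate 2. The squalene synthase gene Fdft1 was at 22.2 and 16.2 CPM in C>T mutants and 6.48 and 8.01 CPM in CG mutants, a log2 fold change of 1.40 ± 0.18. Both C>T libraries of this gene lay above both CG libraries.

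Genes of DNA replication were higher in C>T mutants. Of 33 tested, 24 were higher and 0 lower, with a median of 0.97. The count fell to 16 without C>T mutant replicate 1, 14 without replicate 2 and 17 without CG mutant replicate 1. Mcm3, a subunit of the replicative helicase, was at 72.5 and 79.0 CPM in C>T mutants and 19.3 and 20.8 CPM in CG mutants. That is a log2 difference of 1.92 ± 0.12 (edgeR adjusted p 0.00012). Other helicase subunits followed, with Mcm2 at 1.21 ± 0.11, Mcm4 at 1.51 ± 0.15, Mcm5 at 2.04 ± 0.19 and Mcm6 at 1.33 ± 0.12. Uhrf1, which carries DNA methylation through replication, was at 15.3 and 16.4 CPM against 3.28 and 3.17 CPM, a log2 fold change of 2.30 ± 0.17. The sliding clamp gene Pcna was at 0.45 ± 0.14 and the ribonucleotide reductase gene Rrm2 at 1.11 ± 0.26. The thymidylate synthase gene Tyms did not pass, at -0.20 ± 0.10. In the wild types 17 of the 33 genes were higher in the C>T line and 1 lower, with a median of 0.60.

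The Mcm3 promoter (RefSeq, GRCm38.p6, chr1:20820263-20820562, minus strand) carries the E2F motif TTTCCCGC on its other strand, as GCGGGAAA, with the capitals beginning at position 19. E2F factors switch on replication genes at the start of S phase. The motif was found in 6 of 27 windows of the list (22.2%), those of Mcm3, Mcm7, Cdc6, Gins3, Rfc3 and Pold1, and in 233 of 11337 windows of all (2.06%). Of these 6 genes Mcm3, Cdc6 and Rfc3 were among the 24 called higher.
Mcm3 promoter: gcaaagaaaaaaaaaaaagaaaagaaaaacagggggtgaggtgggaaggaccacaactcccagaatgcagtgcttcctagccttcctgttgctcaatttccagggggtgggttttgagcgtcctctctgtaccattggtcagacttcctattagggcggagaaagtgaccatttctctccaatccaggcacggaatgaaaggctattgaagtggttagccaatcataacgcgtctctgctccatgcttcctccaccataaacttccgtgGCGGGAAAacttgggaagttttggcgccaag

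Mitosis and spindle genes were higher in 20 of 35 members and lower in 1, with a median of 1.05, from levels that were low in all 4 libraries. Without C>T mutant replicate 2, 10 were higher, and without CG mutant replicate 1, 14. Top2a, the topoisomerase that untangles chromosomes, was at 8.66 and 9.88 CPM in C>T mutants and 3.24 and 3.93 CPM in CG mutants, a log2 difference of 1.37 ± 0.17 (edgeR adjusted p 0.00104). The mitotic kinase gene Cdk1 was at 5.00 and 5.14 CPM against 0.748 and 1.68 CPM, a log2 fold change of 2.05 ± 0.33. The proliferation marker Mki67 was at 8.92 and 11.0 CPM against 4.11 and 5.65 CPM, at 1.03 ± 0.23 with an edgeR adjusted p of 0.0104, and it did not pass without C>T mutant replicate 2. The lower member was Pttg1, which encodes securin, at 1.21 and 1.35 CPM against 7.23 and 5.08 CPM. Its log2 fold change was -2.26 ± 0.33. In the wild types 18 of the 35 genes were higher in the C>T line and 1 lower, with a median of 0.87.

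Chondrocyte matrix and identity genes moved in both directions. Of 27 tested 6 were higher, 6 lower and 15 not called, with a median of -0.05, against 17.9% higher and 18.2% lower over all genes. Without CG mutant replicate 1 there were 10 higher and 4 lower with a median of 0.20, and without replicate 2 there were 6 and 10 with a median of -0.47. The scale of log2(FPKM + 1) gave 10 higher and 4 lower, where 3717 of all 11232 genes tested were higher and 1325 lower. The core of the cartilage programme did not pass: Col2a1 was at 31648 and 30879 CPM in C>T mutants and 41094 and 24139.5 CPM in CG mutants. Sox9 was at 632 and 750.4 CPM against 1002 and 601 CPM. The aggrecan gene Acan was at 3069.6 and 3563 CPM against 6966 and 3724 CPM. CG mutant replicate 1 was the highest of the 4 libraries for each of these 3 genes. Their log2 fold changes were -0.06 ± 0.27, -0.21 ± 0.22 and -0.69 ± 0.27, with edgeR adjusted p-values of 0.877, 0.468 and 0.0771. Leaving out CG mutant replicate 1, Col2a1 and Sox9 turned positive, at 0.37 and 0.20, as they did on FPKM. Acan passed without CG mutant replicate 2, at -1.08.

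The higher members encode matrix proteins. The cartilage oligomeric matrix protein gene Comp was at 845 and 803 CPM in C>T mutants and 217 and 263 CPM in CG mutants, a log2 difference of 1.78 ± 0.13 (edgeR adjusted p 0.000213). Col9a1, a chain of the collagen that decorates type II fibrils, was at 1201 and 1107 CPM against 508 and 330.4 CPM. The link protein gene Hapln1 was at 771 and 1332 CPM against 563 and 328 CPM. All 3 had both C>T libraries above both CG libraries, with Col9a1 at 1.46 ± 0.23 and Hapln1 at 1.24 ± 0.30. Matn1, Matn4 and Chad, which encode matrilins and chondroadherin, were at 1.76 ± 0.40, 1.02 ± 0.20 and 0.83 ± 0.22. The lower members were another chain of the same collagen, Col9a3, at -0.89 ± 0.29, the proteoglycan gene Epyc at -1.70 ± 0.23, the transcription factor gene Sox6 at -1.61 ± 0.26, Ucma at -0.99 ± 0.29, the lubricin gene Prg4 at -1.48 ± 0.27 and the growth-restraining receptor gene Fgfr3 at -1.53 ± 0.29, or -0.94 and -1.96 without CG mutant replicate 1 and 2. For Col9a3 the CG mutants were at 2156 and 1057 CPM and the C>T mutants at 945 and 794 CPM.

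Hypertrophy and mineralization genes, which mark the last stage of growth plate chondrocytes, were mixed as well. Of 23 tested 6 were higher and 5 lower, against 17.9% and 18.2% of all genes tested. The higher ones numbered 3 without CG mutant replicate 1 or C>T mutant replicate 1 and 10 without CG mutant replicate 2. The type X collagen gene Col10a1, the defining marker of that stage, was at 4651 and 4569 CPM in C>T mutants and 2075 and 1421 CPM in CG mutants. Its log2 fold change of 1.40 ± 0.19 had an edgeR adjusted p of 0.00128. The Hedgehog ligand gene Ihh was low throughout, at 3 and 4 counts in C>T mutants and 18 and 21 in CG mutants, and was called lower, at -2.69 ± 0.51. Its targets Ptch1 and Gli1 were higher, with Ptch1 at 40.6 and 37.0 CPM against 24.6 and 27.5 CPM and log2 fold changes of 0.57 ± 0.13 and 1.71 ± 0.43. The gene of its feedback partner, Pthlh, was also higher, at 1.91 ± 0.48, from levels under 2 CPM in all 4 libraries. Enpp1 and Ank, which supply extracellular pyrophosphate that holds back mineral, were lower, at -0.58 ± 0.12 and -0.68 ± 0.12. Runx2, Sp7, Alpl and Spp1 did not pass, at -0.26 ± 0.17, -0.19 ± 0.25, -1.32 ± 0.52 and -0.24 ± 0.29.

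**Figure D4:**
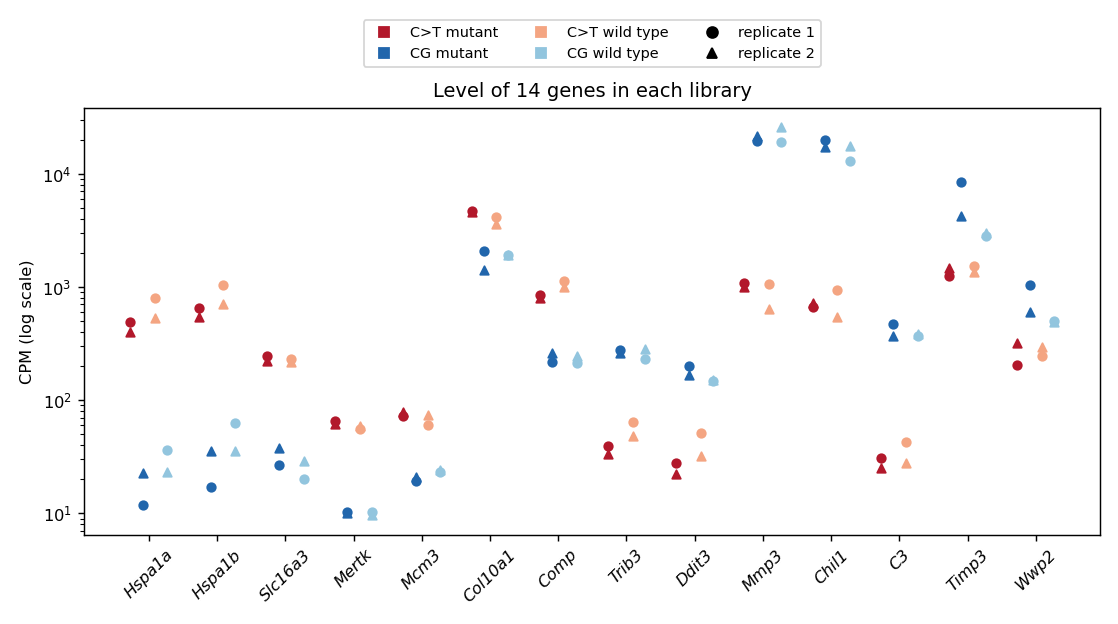
The level of 14 genes in each of the 8 libraries is plotted in CPM on a log scale, with colours for the 4 groups and circles and triangles for replicates 1 and 2. Red C>T mutants lie above blue CG mutants from Hspa1a to Comp and below them from Trib3 to Wwp2, and the paler wild types of each line lie on the same side.

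Small leucine-rich proteoglycans, which space collagen fibrils, had 6 of 10 members higher and 2 lower. The decorin gene Dcn was at 525 and 556 CPM in C>T mutants and 2249.8 and 2489 CPM in CG mutants, a log2 difference of -2.13 ± 0.19 (edgeR adjusted p 0.000299), and Prelp was at -1.68 ± 0.24. The biglycan gene Bgn was higher, at 2688 and 2410.0 CPM against 1889 and 1529 CPM and 0.58 ± 0.16, as were Omd at 1.58 ± 0.40 and Ogn at 1.56 ± 0.29. Of the 6 higher members 1 was left without C>T mutant replicate 2 and 3 without replicate 1. Among 23 genes that build chondroitin sulfate and hyaluronan, 4 were higher and 5 lower, or 8 lower without CG mutant replicate 2. This split was near that of all genes tested, 17.9% higher and 18.2% lower. The xylosyltransferase gene Xylt1, which starts each chain, was at -1.20 ± 0.17 and the sulfate donor gene Papss2 at -1.62 ± 0.22.

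Of 25 matrix protease and inhibitor genes 10 were lower in C>T mutants, 1 was higher and 14 were not called. Mmp3, which encodes stromelysin 1, was at 1085 and 997 CPM in C>T mutants and 19486 and 21719 CPM in CG mutants. The groups lay far apart, at -4.31 ± 0.29 on the log2 scale (edgeR adjusted p 0.000175). The collagenase gene Mmp13 was at 157 and 248 CPM against 813 and 1565 CPM, at -2.55 ± 0.41, and Mmp10 was at -2.67 ± 0.30. The protease inhibitor gene Timp3 was lower too, at 1244 and 1473 CPM against 8379 and 4251 CPM, a log2 fold change of -2.22 ± 0.29. Htra1, a secreted serine protease gene, was the higher member, at 1.32 ± 0.17. The counts depended on the CG mutants: without replicate 1 there were 10 lower and 2 higher with a median of -0.83, and without replicate 2 there were 7 lower and 6 higher with a median of 0.03. Without C>T mutant replicate 1 or 2 there were 4 or 5 lower.

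Collagen and matrix genes of fibroblasts lay on both sides, 4 of 24 higher and 8 lower, against 17.9% and 18.2% of all genes tested. Leaving out C>T mutant replicate 1 gave 1 and 5, leaving out replicate 2 gave 3 and 5, and leaving out CG mutant replicate 2 gave 10 and 9. Col1a1, a chain of type I collagen, was at 1182 and 756 CPM in C>T mutants and 104 and 297 CPM in CG mutants. Its log2 fold change of 2.27 ± 0.44 had an edgeR adjusted p of 0.00596, and it was 1.70 without CG mutant replicate 1 and 3.21 without replicate 2. Col1a2 was at 1.83 ± 0.41, Col3a1 at 1.77 ± 0.56 and Col14a1 at 1.93 ± 0.46. The type V collagen genes Col5a1 and Col5a3 were lower, at -1.08 ± 0.32 and -1.92 ± 0.21. The fibronectin gene Fn1 was at 32264 and 30907 CPM against 74168 and 51968 CPM, a log2 fold change of -1.0 ± 0.23. The type VI collagen genes Col6a1 and Col6a2 were at -0.87 ± 0.14 and -1.01 ± 0.16, and the elastic fibre genes Fbn1, Eln and Fbln5 at -0.95 ± 0.16, -1.19 ± 0.36 and -1.21 ± 0.11.

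Contractile actin and focal adhesion genes were lower in 10 of 21 members and higher in 0, with a median of -0.66, and 5 were lower without C>T mutant replicate 2. The smooth muscle actin gene Acta2 was at 69.5 and 68.2 CPM in C>T mutants and 113 and 173 CPM in CG mutants, at -1.06 ± 0.21. The focal adhesion gene Zyx was at 219 and 188 CPM against 409 and 437 CPM, a log2 difference of -1.05 ± 0.10 (edgeR adjusted p 0.000426), and the actin crosslinker gene Flna was at -0.96 ± 0.12.

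The called inflammatory genes were lower in C>T mutants. Of 33 chemokine and NF-kB genes 14 were lower and 0 higher, with a median of -1.01. Leaving out CG mutant replicate 1 gave 23 lower genes and a median of -1.48, and leaving out replicate 2 gave 10 lower, 1 higher and a median of -0.39. Without C>T mutant replicate 2 the count was 7. The lipocalin gene Lcn2, an acute phase gene of chondrocytes and neutrophils, was at 209 and 165 CPM in C>T mutants and 4423 and 2719 CPM in CG mutants. The cyclooxygenase 2 gene Ptgs2 was at 384 and 334 CPM against 2123 and 1622 CPM. In both genes every C>T library lay far below every CG library, at -4.26 ± 0.35 and -2.38 ± 0.32 on the log2 scale, with edgeR adjusted p-values of 0.000271 and 0.00127. The serum amyloid gene Saa3 was at 1.27 and 0.744 CPM against 19.8 and 17.9 CPM, at -4.21 ± 0.25. In the wild types 24 of the 33 genes were lower in the C>T line and 0 higher, with a median of -1.85.

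Several cytokines differed between the 2 CG libraries. Il6 was at 1.86 and 1.69 CPM in C>T mutants and at 6.81 and 37.7 CPM in CG mutants, a log2 fold change of -3.65 ± 0.70. The neutrophil chemokine gene Cxcl1 was at 232 and 177 CPM against 307 and 691 CPM, at -1.29 ± 0.42. The monocyte chemokine gene Ccl2 was at 61.1 and 54.9 CPM against 64.5 and 214 CPM and did not pass. CG mutant replicate 2 was the higher CG library for each of these 3 genes. Ccl5, in contrast, was even between the CG libraries, at 210.1 and 208 CPM against 394 and 350.3 CPM and -0.83 ± 0.13. The NF-kB subunit genes Nfkb1, Nfkb2 and Relb were lower by small amounts, at -0.72 ± 0.17, -0.48 ± 0.13 and -0.68 ± 0.14.

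Genes of several other secreted proteins were strongly lower as well. Chil1, which encodes the glycoprotein YKL-40, was at 664 and 729 CPM in C>T mutants and 19916 and 17166 CPM in CG mutants, a log2 difference of -4.73 ± 0.31 (edgeR adjusted p 0.000169). The complement gene C3 was at 30.7 and 25 CPM against 466 and 369 CPM, and Cfb at 5.88 and 6.39 CPM against 97.3 and 79.9 CPM. Neither overlapped between the groups, and their log2 fold changes were -3.90 ± 0.22 and -3.85 ± 0.18. Over the 15 complement genes tested, 3 were lower and 1 higher. Without CG mutant replicate 1 there were 4 lower and 0 higher, without replicate 2 there were 2 lower and 6 higher, and without either C>T mutant 0 were higher. The haptoglobin gene Hp was at -4.36 ± 0.33, the interleukin 1 receptor antagonist gene Il1rn at -4.29 ± 0.32, the TNF-induced hyaluronan-binding gene Tnfaip6 at -3.69 ± 0.20, and the chemokine gene Ccl9 at -3.75 ± 0.33. Leaving out CG mutant replicate 1 or 2 moved Il1rn to -4.71 or -3.70 and Ccl9 to -3.14 or -4.19. The extracellular glutathione peroxidase gene Gpx3 was at 51.1 and 44.3 CPM against 1296 and 513 CPM, at -4.24 ± 0.67, with -3.43 and -4.77 without CG mutant replicate 1 and 2. For the glycoprotein gene Reln, at -3.71 ± 0.43, these values were -2.80 and -4.28. The extracellular superoxide dismutase gene Sod3, at 90.4 and 68.3 CPM against 657 and 785 CPM, was at -3.18 ± 0.18 with an edgeR adjusted p of 0.000104.

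Other lower genes with the smallest p-values were Enpp2, which encodes the lysophosphatidic acid producing enzyme autotaxin, at -3.06 ± 0.16, the junction gene Jam2 at -3.12 ± 0.17, the sulfatase gene Sulf1 at -1.79 ± 0.10, the transcription factor gene Maf at -2.08 ± 0.11 and the histidine-degrading enzyme gene Hal at -2.11 ± 0.11. Among the higher genes the smallest p-value belonged to Mertk, a receptor for the uptake of dying cells. It was at 66.1 and 62.2 CPM in C>T mutants and 10.4 and 10.1 CPM in CG mutants, a log2 difference of 2.65 ± 0.10 (edgeR adjusted p 6.13e-05). The replicates of each group nearly coincided. Ahcy, which clears the product of methylation reactions, was at 38.1 and 115 CPM against 3.78 and 3.40 CPM, at 4.41 ± 0.53, or 5.00 and 3.41 without C>T mutant replicate 1 and 2. The matrix gene Tnn, which encodes tenascin N, was at 2.50 ± 0.37 and the neuronal pentraxin gene Nptx1 at 2.42 ± 0.33. Without CG mutant replicate 1 they were at 2.01 and 1.98, and without replicate 2 at 3.25 and 3.06.

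The BMP, TGF-beta, WNT, FGF and IGF lists had called members on both sides, as had all genes tested, with 17.9% higher and 18.2% lower. In the BMP list 5 of 30 were higher and 9 lower, with 5 lower without C>T mutant replicate 1 and 3 higher without replicate 2. The joint-forming ligand gene Gdf5 was at 20 and 14.9 CPM in C>T mutants and 56.5 and 65.7 CPM in CG mutants, a log2 fold change of -1.81 ± 0.15, and the ligand gene Bmp3 was higher, at 1.86 ± 0.25. The receptor gene Bmpr1b was at 0.46 ± 0.10 and the inhibitor Smad gene Smad7 at -0.87 ± 0.09. In the TGF-beta list 4 of 23 were higher and 10 lower. Among the lower ones were the latent complex gene Ltbp3, at 524 and 534 CPM against 1488 and 1089 CPM and -1.29 ± 0.16, and the feedback genes Skil and Pmepa1 at -0.82 ± 0.11 and -1.28 ± 0.18. On FPKM this list had 7 members on each side, and without C>T mutant replicate 1 it had 2 higher and 7 lower.

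In the WNT list 8 of 29 were higher and 5 lower, with 4 and 3 without C>T mutant replicate 1 and 12 and 3 without CG mutant replicate 2. The ligand genes Wnt5b and Wnt11 differed in direction, at 1.81 ± 0.20 and -1.20 ± 0.16, and the feedback genes Axin2 and Nkd2 were higher, at 1.54 ± 0.43 and 1.64 ± 0.21. In the FGF list 5 of 19 were higher and 5 lower, or 2 and 3 without C>T mutant replicate 1 and 2 and 6 without CG mutant replicate 1, with 3 lower without C>T mutant replicate 2 or CG mutant replicate 2. The related target genes Etv4 and Etv5 lay on opposite sides. Etv4 was at 12.7 and 14.5 CPM against 3.74 and 4.54 CPM and Etv5 at 56.3 and 64.8 CPM against 155 and 137 CPM. Their log2 fold changes were 1.71 ± 0.16 and -1.27 ± 0.10. In the IGF list 1 of 17, the adaptor gene Irs1 at 1.29 ± 0.14, was higher and 6 were lower, the binding protein gene Igfbp7 at -1.12 ± 0.10 among them. The IGF list had 4 higher and 5 lower members without CG mutant replicate 2 and 3 lower ones without C>T mutant replicate 2.

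Wwp2, the host gene of miR-140, was at 206 and 321 CPM in C>T mutants and 1043 and 601 CPM in CG mutants. Both C>T libraries lay below both CG libraries, and CG mutant replicate 1 was the highest. The log2 fold change was -1.64 ± 0.28 with an edgeR adjusted p of 0.00367, and -1.19 and -1.99 without CG mutant replicate 1 and 2. The wild types differed by -0.87 with an edgeR adjusted p of 0.0436. These values are for the Wwp2 mRNA and give no level of either arm of the microRNA. Of the 8 ligases of its family 4 were higher, Wwp1, Itch, Nedd4l and Smurf2, and Wwp2 was the lower one. Wwp1 was at 0.69 ± 0.12 and Smurf2 at 0.41 ± 0.13, and Smurf2 did not pass without C>T mutant replicate 1, without either CG mutant or with the 4 libraries alone. Leaving out either C>T mutant, or CG mutant replicate 1, left 2 higher ligases.

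Called published targets of miR-140-5p lay on both sides, as did all genes tested, of which 17.9% were higher and 18.2% lower. Of 20 tested 5 were higher and 5 lower, or 3 and 6 without CG mutant replicate 1 and 3 and 4 without C>T mutant replicate 1, with a median of -0.04 that became 0.15 on log2(FPKM + 1). The histone deacetylase gene Hdac4, which restrains hypertrophy, was at 30.7 and 29.1 CPM in C>T mutants and 43.3 and 48.0 CPM in CG mutants, at -0.61 ± 0.11. The lower members Mmp13 and Wnt11 were described above, and the others were Loxl3 at -0.64 ± 0.20 and the antioxidant regulator gene Nfe2l2 at -0.71 ± 0.13. The higher ones were the DNA methyltransferase gene Dnmt1 at 1.09 ± 0.15, Smad3 at 0.74 ± 0.21, Hspa4l at 0.60 ± 0.17 and the small GTPase genes Rala and Ralb at 0.53 ± 0.10 and 0.45 ± 0.08. The aggrecanase gene Adamts5, at 7.35 and 8.63 CPM against 5.94 and 19.3 CPM, did not pass. Of 4 reported targets of miR-140-3p only Cd38 was called, at 1.26 ± 0.37, and not when any single mutant library was left out. The others were Bcl2 at -0.45 ± 0.19, Ncoa1 at -0.05 ± 0.11 and Nrip1 at -0.13 ± 0.12.

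Sites for the reference 3p seed were counted in the longest 3′ UTR of each gene in GENCODE M21, as the 7-base matches to its bases 2 to 8, or to bases 2 to 7 followed by an adenine. Genes with a site, 3798 in number, had a median log2 fold change of -0.005, and 18.1% were higher and 18.9% lower. Genes without a site, 10120 in number, had a median of -0.010, with 18.3% and 18.1%. The 610 genes with an 8-base match had a median of -0.010. UTRs with a site were longer, with a median of 2424 bases against 1036. Among genes whose UTR length lay within the same range, from 1478 to 3728 bases, medians were -0.002 with and 0.003 without a site. Of 16 genes of microRNA processing and Argonaute proteins 4 were higher and 4 lower, with 1 lower without C>T mutant replicate 1 or 2, 2 higher without C>T mutant replicate 2 and 2 lower without CG mutant replicate 1. The shares over all genes tested were 17.9% higher and 18.2% lower. Ago2, the slicing Argonaute, was at 164 and 137 CPM against 91.2 and 99.6 CPM, a log2 fold change of 0.66 ± 0.11. The exportin gene Xpo5 was among the lower members of the list.

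Markers of blood and vessels moved with the line. The alpha globin gene Hba-a1 took 13887 and 17836 counts in C>T mutants and 29 and 134 in CG mutants. All globin genes together took 0.105% and 0.150% of counts in C>T mutants and under 0.002% in CG mutants. Of 12 erythroid markers 11 were higher, Epb42 being the exception, and 7 were higher without CG mutant replicate 1. Hbb-b1 was at 5573 and 15398 counts against 1 and 1. The near-identical gene Hbb-bs was at 5323 and 429 counts against 27 and 101. In the wild types Hbb-b1 was at 28765 and 18146 counts in the C>T line and 0 and 0 in the CG line, and Hbb-bs at 118 and 9 against 92 and 169. Which beta globin gene took more of the counts thus differed between the lines. The split also varied within the C>T mutants, where replicate 1 had nearly as many counts for Hbb-bs as for Hbb-b1. The level and fold change of each by itself are uncertain, and a part of genetic background in them was not tested. The haem synthesis gene Alas2 was at 365 and 474 counts against 2 and 9. In bulk RNA fewer cells of a type and less RNA per cell cannot be told apart.

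Counts of the following marker lists are to be read beside the shares of all genes tested, 17.9% higher and 18.2% lower. A count near these shares is no sign of a change in a cell type. Endothelial markers were higher in 6 of 15 members and lower in 0. Their summed levels were 164 and 203 CPM in C>T mutants and 75.3 and 122 CPM in CG mutants. The higher members numbered 2 without CG mutant replicate 1, 3 without C>T mutant replicate 1 and 1 without replicate 2. Macrophage and leukocyte markers were higher in 4 of 16, but their summed levels overlapped, at 391 and 368 CPM against 337 and 489 CPM. Leaving out CG mutant replicate 1 gave 0 higher and 1 lower, leaving out replicate 2 gave 12 higher, and leaving out C>T mutant replicate 1 or 2 gave 1 or 0. Of 16 neutrophil markers 6 were higher and 3 lower, or 3 and 2 without C>T mutant replicate 2. S100a8 was at 10.7 and 11.6 CPM against 0.582 and 3.43 CPM, and S100a9 at 20.5 and 26.7 CPM against 0.914 and 6.72 CPM, both called higher. The summed neutrophil level was lower, at 294 and 271 CPM against 4467 and 2811 CPM, since Lcn2, which chondrocytes also express, made up most of it in CG mutants. Of 11 skeletal muscle markers 3 were lower and 0 higher, but 0 were lower without C>T mutant replicate 1, 1 without replicate 2 and 7 without CG mutant replicate 1. They summed to 20 and 23.9 CPM against 27.7 and 103 CPM, with Ckm at 4 and 12 counts against 0 and 7. Of 4 adipocyte markers tested 1 was higher, or 0 without either C>T mutant, and the defining marker Adipoq had 1 and 2 counts against 1 and 3. Of 11 osteoblast and bone markers 3 were higher and 2 lower, or 3 and 4 without CG mutant replicate 1 and 5 and 1 without replicate 2, and without either C>T mutant 2 and 1. They summed to 1236 and 812 CPM against 217 and 442 CPM, in C>T mutants mostly from Col1a1, while the defining markers Sp7, at 170 and 170 counts against 138 and 187, and Bglap, at 76 and 80 against 11 and 38, did not pass. The part of these cells in the results for inflammation, glycolysis and proliferation was not tested.

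**Figure D5:**
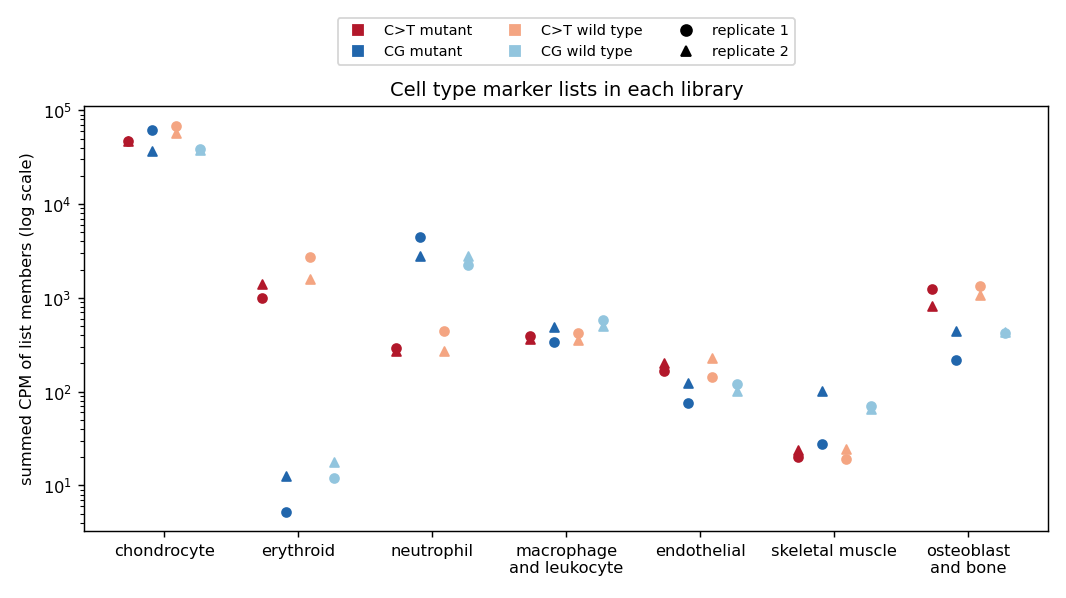
Summed CPM of 7 marker lists are plotted on a log scale for each of the 8 libraries, with colours for groups and shapes for replicates. Erythroid markers reach 1007 and 1418 CPM in C>T mutants and 5.19 and 12.7 CPM in CG mutants, while the chondrocyte sums, 36497 to 61937 CPM, overlap between the mutants.

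The 3 genes that passed the test of the mutant against the wild-type difference were examined last. Eif3j2, a near-identical copy of Eif3j1, which encodes a subunit of a translation initiation factor, was at 57.0 and 59.5 CPM in C>T mutants and 1.04 and 1.30 CPM in CG mutants. In the wild types the order was the reverse, at 1.55 and 1.39 CPM in the C>T line and 129 and 58.9 CPM in the CG line. Its log2 fold change between mutants was 5.63 ± 0.41, and the mutant difference exceeded the wild-type difference by 11.62 ± 0.57 with an edgeR adjusted p of 0.00053. Eif3j1 was at 118 and 117 CPM against 146 and 143 CPM in mutants and did not pass. Such copies can share reads, so the split between them is uncertain, and their sum was 175 and 177 CPM in C>T mutants and 147 and 144 CPM in CG mutants, a log2 difference of 0.27.

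Cwc22, a splicing factor gene that loads the exon junction complex, was at 239 and 143 CPM in C>T mutants and 43.3 and 40 CPM in CG mutants. It was at 46.1 and 53 CPM in C>T wild types and 138 and 134 CPM in CG wild types. The mutant difference of 2.20 ± 0.22 thus contrasted with a wild-type difference of -1.46, and the difference between them was 3.66 ± 0.30 with an edgeR adjusted p of 0.0148. Palld, which encodes the actin scaffold protein palladin, was at 43.6 and 42.4 CPM in C>T mutants and 151 and 138 CPM in CG mutants, and at 101 and 107 CPM against 72.6 and 49.2 CPM in the wild types. The C>T line differed from the CG line by -1.75 ± 0.17 in mutants and by 0.77 in wild types, a difference of -2.52 ± 0.23 with an edgeR adjusted p of 0.0239. Eif3j2 passed this test whichever library was left out. Cwc22 did not pass without C>T wild type replicate 1 or 2, and Palld did not pass without these, nor without C>T mutant replicate 1 or 2. Without CG mutant replicate 2, 97 genes passed.

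Among the 92 called genes whose wild-type difference was 0 or of the other sign, 5 in each direction had the smallest p-values. Besides Eif3j2 and Cwc22, the higher ones were the p53 target gene Ccng1, at 186 and 221 CPM against 130.1 and 132 CPM and 0.64 ± 0.11, the protease inhibitor gene Cst3 at 0.73 ± 0.13 and Rasgrf2 at 1.11 ± 0.20. Besides Palld, the lower ones were the adhesion receptor gene Adgra2, at 18.5 and 18.5 CPM against 36.3 and 27.5 CPM and -0.78 ± 0.14, and the low genes Ugt1a6a, Gm19410 and Gm32289, each under 4 CPM in all 4 libraries. In Ccng1 the wild-type values were 202 and 209 CPM in the C>T line and 249 and 218 CPM in the CG line.

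The authors' deposited table of comparisons lists 2655 genes, of which 2011 have a q-value under 0.05 for these mutants, 1963 higher and 48 lower in C>T mutants. It holds 2108 of the 2564 genes called higher here and 48 of the 2620 called lower, so the lower side is nearly missing from it and its counts cannot be set against those above. Of 2010 of its genes tested here, 1959 were called in the same direction and 0 had the other sign. The authors' deposited table gives log2 ratios of 4.71 for Hspa1a, 2.65 for Mertk and -1.74 for Palld.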

How the data were processed

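Total RNA of cultured rib chondrocytes was sequenced in 8 libraries. Per the submitters' processing notes, HISAT2 2.0.4 and the mm9 build were used, and no source used here names the read counter or annotation. The table deposited by the authors gives an estimated count per gene, without normalization, and an FPKM for 18501 genes. Between 2282 and 2518 values a library were not whole, and all were rounded. The authors' deposited comparison table holds log2 ratios and q-values, by a tool that no source used here names. Entrez IDs gave back 24 symbols that had become dates. A further deposited table of 3 of the libraries, with 17730 genes, held identical values and was not used further.

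One edgeR 4.0.16 fit (R 4.3.3) estimated the means of 4 groups from 8 libraries, using TMM factors and the default filter on low counts (14359 genes, 4 residual degrees of freedom). Each standard error was taken as the size of the log2 fold change over the root of its F statistic. Alternatives were RLE and upper-quartile factors, no filter, the 4 libraries alone, a replicate block, DESeq2 1.42.0, limma 3.58.1 on log2(FPKM + 1) and log2(FPKM + 0.1) with a mean FPKM of at least 1, and leaving out each library. The fit was tested on simulated data. No 2 libraries of a group agreed within sampling noise.

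The comparison, the 40 gene lists and the alternatives were chosen with earlier results of these data known. Genes were named by rule: the 12 largest changes and 8 smallest p-values in each direction (mean log2 CPM of at least 3, groups not overlapping, unnamed models passed over), up to 4 called members a list or, where none passed, the member with the smallest p, Wwp2, Col2a1, Acan, Sox9, Col10a1, Col1a1, Mki67, Eif3j1, Eif3j2, Cwc22 and Palld, every gene called in the difference of differences, and 5 genes in each direction whose wild-type difference was 0 or opposite. Other list members, and the heat shock chaperones, were picked after their values were seen. Promoters came from RefSeq and 3′ UTRs from GENCODE M21, both on GRCm38, matched by Entrez ID, and no coordinates of the authors' build are given. Some members of the sterol synthesis list are counted but not reported here by name.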

Additional observations from a re-analysis of the deposited data

Results flagged for a closer look

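For 3 genes the line difference in mutants departed from that in wild types by the test of the difference itself. On the log2 scale the mutant difference minus the wild-type difference was 11.62 for Eif3j2, 3.66 for Cwc22 and -2.52 for Palld. Eif3j2 was under 2 CPM in the C>T wild types and the CG mutants and at least 57.0 CPM in the other groups, while Eif3j1, its near-identical copy, had 18 counts in the first CG wild type and 1834 in the other. Palld did not pass without either C>T mutant or either C>T wild type, and Cwc22 did not pass without either C>T wild type.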

How the results depend on the processing

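Calls between the mutants numbered 5183 with RLE factors, 5118 with upper-quartile factors, 5006 without a filter, 4812 with DESeq2 and 4199 from the 4 libraries alone, which kept 4092 of the 5184 genes. Leaving out 1 library gave 2908 to 5210 calls, 1449 to 2565 of them higher and 1445 to 2645 lower, the fewest when a C>T mutant was left out, and the lone library of a group is then assumed to vary like the others. On log2(FPKM + 1) and log2(FPKM + 0.1) the lower genes numbered 1325 and 1311. Between the wild types leaving out 1 library gave 2137 to 5324 calls. For the difference of differences these fits gave 1 to 97 calls, no filter gave 5 and DESeq2 38. With a replicate block 4792 genes were called, 2356 higher and 2436 lower, and again 3 in the difference of differences. Deviations of same-numbered libraries were correlated at 0.019 between the mutants, at 0.248 between C>T mutants and C>T wild types, and from -0.089 to -0.063 between the other pairs of groups. The labels do not say what a number marks, and no pairing was assumed. Of 2952 values of the 186 named genes under the alternatives, 2803 kept direction and side of the threshold, 137 lost the call, in 38 genes, 6 gained it, and 6 changed sign. Those 6 belong to genes that did not pass: Col2a1, at 0.21 on both FPKM scales and -0.40 to 0.37 when a library was left out, and Sox9, at 0.043 on both FPKM scales and -0.54 to 0.20 when a library was left out, each highest without CG mutant replicate 1 and lowest without replicate 2. Of 640 list medians 37, in 20 lists, took the other sign, none of them in the stress response, glycolysis, DNA replication, mitosis or cholesterol lists. With 2 libraries a group, genes of few counts could differ without being called.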

Other observations

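Clock genes, which keep daily time through opposing feedback arms, were called in 11 of 19 members, 4 higher and 7 lower in C>T mutants. Arntl, the activating partner of CLOCK, was at 16.2 and 15.5 CPM in C>T mutants and 35.5 and 45.8 CPM in CG mutants, a log2 difference of -1.36 ± 0.14 (edgeR adjusted p 0.000531). The repressor genes Per2 and Per3 were lower as well, at -2.11 ± 0.23 and -1.81 ± 0.17, and so was Nfil3, at -1.72 ± 0.15. In the wild types 4 clock genes were higher and 6 lower. The labels give no hour of collection, and its part in these values was not tested.

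Targets of p53, which halts damaged cells, had 9 of 23 members higher and 3 lower. The death receptor gene Tnfrsf10b was at 109 and 102 CPM in C>T mutants and 52.6 and 59.2 CPM in CG mutants, at 0.92 ± 0.10, and Phlda3 was at 0.97 ± 0.15. Gadd45a, which other stress pathways also induce, was lower, at 56.0 and 37.3 CPM against 276 and 219.8 CPM and -2.41 ± 0.28. In the wild types this list had 4 higher and 7 lower members, and no member passed the test of the difference between the comparisons.

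Immediate early genes, induced within minutes of a stimulus, were split, with 5 of 24 higher and 10 lower. Egr1 was at 341 and 363 CPM in C>T mutants and 107 and 126 CPM in CG mutants, at 1.60 ± 0.17. Klf4 went the other way, at 213 and 199 CPM against 711 and 571 CPM and -1.64 ± 0.15, and Fosl2 and Nr4a3 were at -1.33 ± 0.16 and -1.76 ± 0.23. On log2(FPKM + 1) 8 were higher and 7 lower, where 3717 of all 11232 genes tested were higher and 1325 lower.

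Over all genes tested 17.9% were higher and 18.2% lower. Of 35 interferon-stimulated genes 0 were higher and 7 lower, of 20 MHC genes 2 and 4, of 23 NRF2 antioxidant targets 5 and 3, and of 8 tendon genes 3 and 0. Lower interferon-stimulated genes numbered 3 without C>T mutant replicate 1, 4 without replicate 2 and 3 without CG mutant replicate 2. Lower MHC genes numbered 1 without either C>T mutant or CG mutant replicate 2 and 2 without CG mutant replicate 1. Tendon genes held 1 higher member without either C>T mutant, and 3 higher and 1 lower without CG mutant replicate 1, when their median turned from 0.25 to -0.19. For NRF2 targets the counts were 2 and 2 without either C>T mutant, 4 and 5 without CG mutant replicate 1, with the median turning from 0.24 to -0.05, and 12 and 2 without replicate 2. Of 4 Y-linked genes tested 0 were called, but this count does not show that the groups were alike. C>T mutant replicate 2 nearly lacked these transcripts, and the spread within its group left a call hardly possible. The log2 fold change of Uty was -1.37, and -7.36 without C>T mutant replicate 1. The lists above also moved with single libraries: without C>T mutant replicate 1, 1 clock gene, 5 p53 targets and 1 immediate early gene were higher, while 6, 3 and 9 were lower. Without C>T mutant replicate 2, 2 clock genes were higher and 5 lower. Without CG mutant replicate 1, 2 clock genes were higher and 6 lower, and 2 immediate early genes were higher and 7 lower.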
